A study of Homo sapiens with 24 samples.

Results

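The genes described here are 8 paralogs of cytosolic ribosomal proteins, RPL3L, RPL7L1, RPL10L, RPL22L1, RPL26L1, RPL36AL, RPL39L and RPS27L. They were taken by symbol from the protein-coding rows of a table of 48162 genes, and each symbol matched 1 row. The table held read counts from 24 RNA libraries of PPC1, a human prostate cancer cell line, with 6 libraries in each of 4 groups. UT were untreated parental cells. UT_LCL were parental cells given 5 µM LCL-521, an inhibitor of acid ceramidase (ASAH1), for 5 h before harvest. PGCC were polyploid giant cancer cells, obtained by exposing parental cells to 8 Gy on day 2, harvesting on day 5 and retaining large cells on a 20 micron strainer. PGCC_LCL were the same kind of cells given 5 µM LCL-521 for 5 h. Irradiation and size selection were applied together and neither was applied to parental cells, so their effects cannot be told apart. All libraries came from 1 cell line, and the experiment was repeated 6 times with the 4 conditions harvested in parallel.

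The cytosolic ribosome is built from a small and a large subunit, each made of ribosomal RNA and a fixed set of proteins that nearly every cell makes in large amounts. A few of these proteins have a paralog, a second gene that arose by duplication or by copying of a messenger RNA back into the genome. Some paralogs can take the place of the usual protein in the ribosome of particular tissues. RPL39L and RPL10L are known from male germ cells, where RPL10L serves in place of the X-linked RPL10, and RPL3L is known from heart and skeletal muscle. RPS27L is known as a target of p53. RPL22L1 is the paralog of RPL22, and the levels of these genes are known to be linked. RPL26L1 and RPL36AL encode proteins almost identical to RPL26 and RPL36A and are made in many tissues. RPL7L1 is a more distant relative of RPL7 and is known from the assembly of the large subunit in the nucleolus. In the text below, the usual gene of each pair (RPL3, RPL7, RPL10, RPL22, RPL26, RPL36A, RPL39 and RPS27) is called the counterpart.

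Messenger RNAs of ribosomal proteins are known to start with a C followed by an unbroken run of C and T, the terminal oligopyrimidine tract, through which growth signals adjust their translation. The bases around the annotated start are shown for the pairs RPL22L1 and RPL22, RPS27L and RPS27, and RPL36AL and RPL36A. In each of these pairs both genes had 1 entry. The pairs RPL10L and RPL10, and RPL26L1 and RPL26, also had entries for both genes and are not shown. In each of them the paralog had a run of 0 bases and the counterpart a run of 12. Each line holds 10 bases before and 20 bases from the RefSeq start (build GRCh38.p14), and capitals mark an unbroken run of C and T that begins with C at the first transcribed base.
RPL22L1 (chr3:170870176-170870205, minus strand): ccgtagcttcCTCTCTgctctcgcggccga
RPL22 (chr1:6199576-6199605, minus strand): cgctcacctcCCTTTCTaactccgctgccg
RPS27L (chr15:63157458-63157487, minus strand): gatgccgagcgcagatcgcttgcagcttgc
RPS27 (chr1:153990752-153990781, plus strand): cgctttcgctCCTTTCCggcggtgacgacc
RPL36AL (chr14:49620607-49620636, minus strand): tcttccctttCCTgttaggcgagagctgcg
RPL36A (chrX:101391001-101391030, plus strand): ctcgcggtttCTTTCTTTCCgcgccgatag

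RPL22L1 had a run of 6 bases at its start and RPL22 a run of 7. RPS27L had none and RPS27 had 7, whereas RPL36AL had 3 and RPL36A had 10. All bases shown before the start of RPL36AL are C or T as well, so its run depends on where the start is placed. A run of at least 5 bases, searched on the transcribed strand only, stood at the start of 4.07% of all 35116 promoter entries. Counted by gene, it stood in 5.14% of 27305 genes with an entry and in 47 of 63 cytosolic ribosomal protein genes with an entry (74.6%). It was found in 6 of 7 counterparts with an entry, the other being RPL3 with a run of 4 bases, and in 1 of 6 paralogs with an entry, RPL22L1. Where a gene had several entries (RPL10 had 3 and RPL26L1 had 2), the entry with the longest run was counted. RPL3L, RPL39L and RPL7 had no entry.

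Library totals ranged from 14835246 to 19906601 counts, so that 3 counts, taken as the limit of detection in a library, equalled 0.151 to 0.202 CPM. CPM, the count scaled to the library total, was computed with TMM factors over all 24 libraries and gives a share of the library's RNA, so fewer cells with a transcript and less transcript per cell cannot be told apart, and neither can a change in the RNA content of a whole cell be seen. Replicates 4 and 5 of every condition stood apart from the other 4 in earlier work on these data, and values without them are given where they bear on a paralog. Of the prostate luminal markers, KLK3, KLK2 and FOLH1 had 0 counts in all 24 libraries, TMPRSS2 had at most 2 counts, and HOXB13 had 5520 to 15212. Of the epithelial markers, the keratins KRT8, KRT18 and KRT19 had 833 to 22430 counts, while the adhesion genes EPCAM and CDH1 had 0 to 17 and 18 to 113 counts. Summed leukocyte and endothelial markers (PTPRC, CD3E, CD14, LYZ and VWF) lay between 0.413 and 4.08 CPM in parental libraries and between 3.19 and 5.24 CPM in PGCC libraries.

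Levels of the 8 paralogs spanned 3 classes when compared per kilobase of the gene length listed in the table. In UT, RPL36AL was highest at 222 ± 26.0 CPM per kb (SD, n = 6), followed by RPL7L1 at 131 ± 17.3 CPM per kb and RPL26L1 at 76.5 ± 9.01 CPM per kb, and the ranges of these 3 genes did not overlap. RPS27L (12.7 ± 0.679 CPM per kb), RPL39L (11.1 ± 4.25 CPM per kb) and RPL22L1 (10.9 ± 0.925 CPM per kb) formed a middle class whose neighbours did not differ beyond their spread. RPL10L and RPL3L were lowest at 0.421 ± 0.461 and 0.105 ± 0.0421 CPM per kb. In PGCC the order of the classes was kept, but RPL39L stood alone at the top of the middle class, at 22.2 to 34.1 CPM per kb against 13.9 to 19.1 CPM per kb for RPS27L and 10.9 to 17.6 CPM per kb for RPL22L1. The listed lengths were not compared with the transcripts made in these cells, and an order between genes depends on them.

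**Figure D1:**
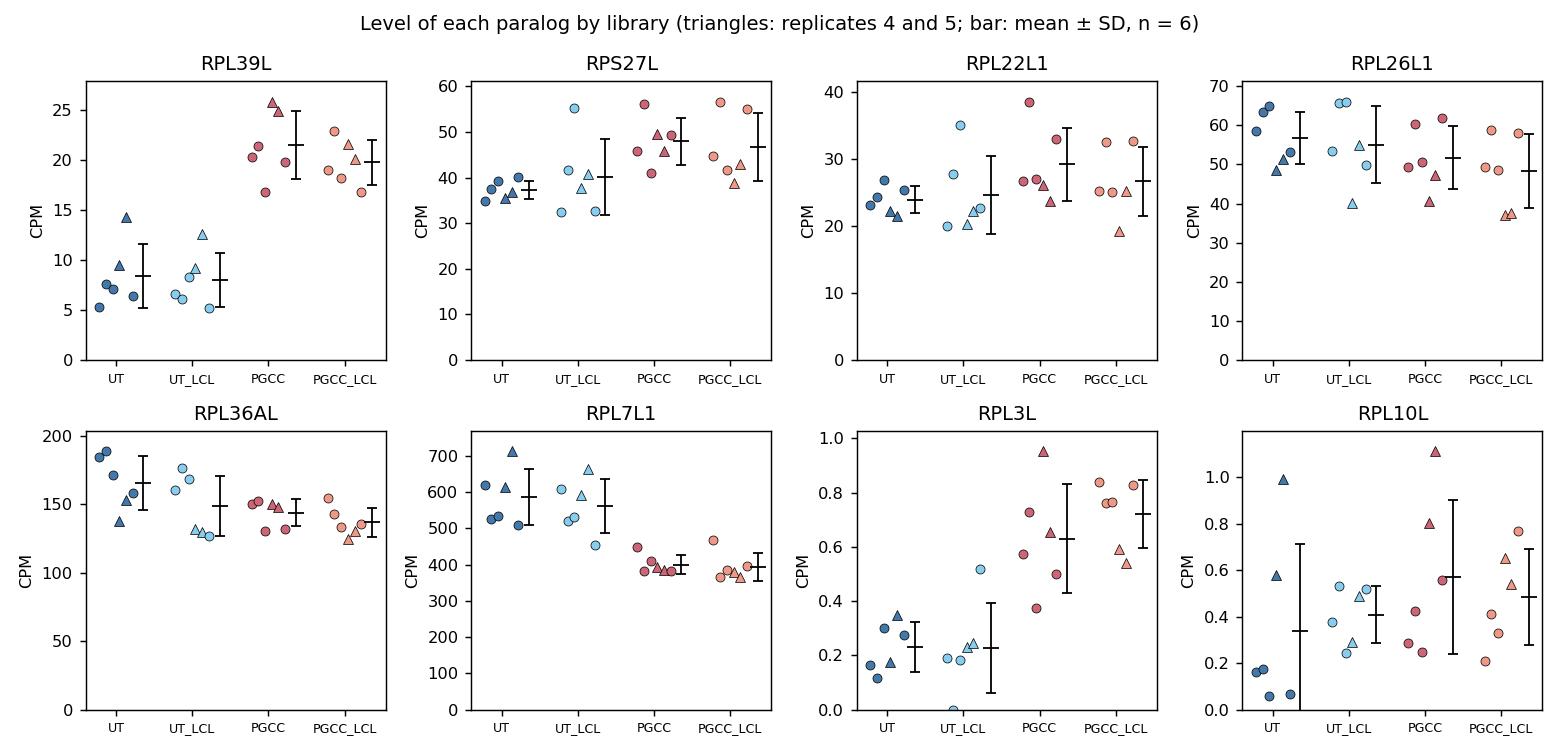
Level of each paralog in CPM (vertical axis, starting at 0) in every library of the 4 conditions, with replicates 4 and 5 as triangles and the mean and SD of 6 libraries as bars. RPL39L was higher in all 12 PGCC and PGCC_LCL libraries than in the 12 parental libraries, RPL7L1 was lower with 1 overlap, and RPL3L and RPL10L stayed at 1.11 CPM or below.

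The comparison of PGCC with UT asks how giant cells differ from the cells they came from. The paralogs were chosen by name with their fold changes in this contrast already known, so those values are given as a description without a test. The fit called 47.4% of 13812 genes (23.1% higher and 24.3% lower), and with library totals as the only scaling 3820 of 6341 called genes were higher, against 3186 of 6541 with TMM. Of the 6 paralogs that passed the filter on low counts, 3 had a log2 fold change above 0 (RPL39L, RPS27L and RPL22L1) and 3 below 0. Their median log2 fold change was 0.09, beside -0.65 for 78 cytosolic ribosomal protein genes and -0.03 for all genes. Of those 78 genes, 73 were called lower and 0 higher. Giant and parental cells were compared a second time in separate dishes of the same 6 experiments, all given LCL-521 (PGCC_LCL against UT_LCL). The tests below used these libraries. They are not independent of PGCC against UT. Same-numbered libraries with and without LCL-521 deviated together from their condition means (median r 0.652 in parental and 0.532 in giant cells). Which values led to the choice of paralogs is not recorded, so these tests are no separate support for the paralogs. In PGCC_LCL against UT_LCL the fit called 48.9% of 13818 genes (25% higher and 23.9% lower), and 1 of the 6 paralogs tested was higher and 1 lower.

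RPL39L showed the largest difference among the 6 paralogs tested. The gene lies at 186838736 to 186898696 on the minus strand of chromosome 3 (hg19). Its level in UT_LCL was 5.23 CPM at the lowest, 7.44 at the median and 12.6 at the highest, and in PGCC_LCL it was 16.8, 19.5 and 22.9 CPM. No PGCC_LCL library fell into the range of UT_LCL, a separation in the same direction that 14.7% of all 14555 genes kept over 24 libraries also showed. RPL39L was 2.51-fold higher in PGCC_LCL (log2 fold change 1.33 ± 0.19 SE, edgeR adjusted p = 5.0e-05, higher in 6 of 6 experiments). In UT its levels were 5.34, 7.35 and 14.3 CPM (lowest, median, highest) and in PGCC 16.8, 20.9 and 25.8 CPM, a log2 fold change of 1.36 ± 0.21 SE. RPL39, its counterpart, fell in PGCC_LCL by 0.72 on the log2 scale (SE 0.13, edgeR adjusted p = 3.5e-04), from 792 ± 150 to 471 ± 70.3 CPM (SD, n = 6).

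Within parental cells, RPL39L was not uniform. Its highest parental levels were those of replicates 5 and 4 in both UT (14.3 and 9.46 CPM) and UT_LCL (12.6 and 9.19 CPM), while the other 8 parental libraries held 5.23 to 8.26 CPM. The mean log2 difference between PGCC_LCL and UT_LCL was 0.95 in replicates 4 and 5 and 1.55 in the other 4 experiments. RPL39L passed the threshold in 16 of 16 alternative settings of this comparison, with adjusted p from 4.9e-11 to 5.8e-04.

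Markers of male germ cells, the cells in which RPL39L is best known, were near the limit of detection. SYCP1, TNP1, PRM1 and PRM2 had 0 counts in all 24 libraries, and the sum of 8 markers was 0.121 to 0.826 CPM in UT_LCL and 1.06 to 1.98 CPM in PGCC_LCL, mostly ACRV1 and DDX4. This sum is below the level of RPL39L in every library, and a relation between the sum and RPL39L was not tested. Over the 24 libraries, the genes whose log2 CPM followed RPL39L most closely were PTTG1, which encodes securin, the inhibitor of chromosome separation (r = 0.983), and DLGAP5, which encodes a protein of the mitotic spindle (r = 0.980). After subtraction of each condition's mean these r values were 0.934 and 0.892, and 0.868 and 0.799 without the 2 libraries farthest from the median of RPL39L. PTTG1 and DLGAP5 were higher in PGCC_LCL than in UT_LCL by 2.30 ± 0.21 and 2.53 ± 0.32 on the log2 scale (SE, edgeR adjusted p = 9.2e-07 and 1.8e-05). The points of such a correlation share library, depth and scaling, and the r values are a description.

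RPS27L lies on the minus strand of chromosome 15, and its row overlaps LACTB on the opposite strand over 16190 bases. Strand handling of the counting was not given in the sources used here, so reads of the overlap may not be told apart, and LACTB held 194 to 306 counts against 515 to 990 for RPS27L. RPS27L levels in UT were 35.0 CPM at the lowest, 37.1 at the median and 40.1 at the highest, and in PGCC they were 40.9, 47.6 and 56.2 CPM. These groups did not overlap, a separation in the same direction that 14.3% of 14555 genes also showed. The log2 fold change was 0.37 ± 0.09 SE. In UT_LCL the levels were 32.4, 39.2 and 55.3 CPM and in PGCC_LCL 38.7, 43.9 and 56.6 CPM. With LCL-521 the groups overlapped, the log2 fold change was 0.24 ± 0.14 SE, and the difference did not pass the threshold (edgeR adjusted p = 0.176, higher in 5 of 6 experiments).

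RPS27L passed the threshold in 1 of 16 alternative settings of this comparison, the omission of replicate 3. UT_LCL 3 held 910 counts of RPS27L and 579 of RPL22L1, the highest of its group in each case, and its cytosolic ribosomal protein genes stood 0.28 above their condition mean (median, log2 scale), the largest deviation of 24 libraries. Without replicate 3, RPS27L was higher in PGCC_LCL by 0.39 on the log2 scale with an edgeR adjusted p of 0.032, and over all 16 alternatives the adjusted p ranged from 0.032 to 0.528.

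Other p53 targets were read from a list of 24 genes without RPS27L. Of 21 tested, 5 were higher and 5 lower in PGCC_LCL than in UT_LCL, beside 48.9% of all genes called, and their median log2 fold change was 0.00. CDKN1A, which encodes the cell cycle inhibitor p21, rose by 3.89 ± 0.36 and DDB2, a DNA damage sensor, by 2.02 ± 0.17 on the log2 scale (SE, edgeR adjusted p = 1.1e-06 and 3.5e-07). ZMAT3, an RNA-binding protein, fell by 1.16 and SESN1, a stress-induced regulator of growth signalling, by 0.51 on the log2 scale (edgeR adjusted p = 1.2e-05 and 0.0027). MDM2, the inhibitor of p53, had a log2 fold change of -0.12 ± 0.09 SE that did not pass the threshold (edgeR adjusted p = 0.265).

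RPL22L1 lies on the minus strand of chromosome 3 (170582664 to 170588272, hg19). Its levels were 21.5, 23.8 and 26.9 CPM in UT (lowest, median, highest) and 23.8, 26.9 and 38.6 CPM in PGCC. PGCC was higher in 6 of 6 experiments although the groups overlapped, with a log2 fold change of 0.30 ± 0.12 SE. In UT_LCL the levels were 20.0, 22.5 and 35.2 CPM and in PGCC_LCL 19.3, 25.3 and 32.8 CPM. The log2 fold change with LCL-521 was 0.14 ± 0.16 SE (95% interval -0.21 to 0.49) and did not pass the threshold (edgeR adjusted p = 0.511). PGCC_LCL was higher in 4 of 6 experiments. Without replicate 3 it was 0.29 (edgeR adjusted p = 0.169), and over 16 alternatives it ranged from 0.03 to 0.29 with adjusted p from 0.169 to 0.898. RPL22, its counterpart, fell by 0.64 ± 0.08 SE on the log2 scale in the same libraries (edgeR adjusted p = 1.3e-05), from 783 ± 78.0 to 494 ± 20.4 CPM (SD, n = 6).

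RPL7L1, on the plus strand of chromosome 6 (42847356 to 42857663, hg19), was lower in PGCC_LCL. Its level in UT_LCL was 454 CPM at the lowest, 562 at the median and 665 at the highest, and in PGCC_LCL it was 366, 382 and 469 CPM. Only PGCC_LCL 1 reached into the range of UT_LCL. The gene fell by 0.49 on the log2 scale (SE 0.09, edgeR adjusted p = 6.5e-04, lower in 6 of 6 experiments), and it passed the threshold in 16 of 16 alternatives. RPL7 fell by 0.67 in the same fit (SE 0.08, edgeR adjusted p = 1.1e-05). The fall of RPL7L1 averaged 0.75 in replicates 4 and 5 and 0.39 in the other 4 experiments. In UT and PGCC the levels were 510, 574 and 713 CPM and 383, 389 and 448 CPM, a log2 fold change of -0.55 ± 0.09 SE. CCNY, a membrane-associated cyclin (r = 0.981), and PXDN, a peroxidase of the extracellular matrix (r = 0.970), had the patterns most like RPL7L1 over 24 libraries.

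RPL26L1 and RPL36AL gave small values in the giant cell comparisons. RPL26L1 was at 40.2, 54.2 and 66.1 CPM in UT_LCL (lowest, median, highest) and at 37.1, 49.0 and 58.9 CPM in PGCC_LCL, with a log2 fold change of -0.16 ± 0.15 SE (95% interval -0.47 to 0.15, edgeR adjusted p = 0.373). RPL36AL was at 127, 146 and 176 CPM in UT_LCL and at 125, 134 and 154 CPM in PGCC_LCL, with a log2 fold change of -0.10 ± 0.09 SE (95% interval -0.29 to 0.10, edgeR adjusted p = 0.412). The row of RPL26L1 overlaps CTC-308K20.1 on the opposite strand over 664 bases, and that row held 0 to 10 counts. Both pairs of groups overlapped, and the intervals leave room for changes in either direction. In PGCC against UT the log2 fold changes were -0.13 ± 0.12 SE for RPL26L1 and -0.19 ± 0.08 SE for RPL36AL. For RPL36AL, the mean log2 difference was 0.04 in replicates 4 and 5 and -0.31 in the other 4 experiments.

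RPL3L and RPL10L were close to the limit of detection and were removed by the filter on low counts in both giant cell comparisons. RPL3L had 2 to 6 counts in UT libraries, 0 to 9 in UT_LCL, 6 to 19 in PGCC and 9 to 16 in PGCC_LCL. Its lowest, median and highest levels were 0, 0.211 and 0.517 CPM in UT_LCL and 0.541, 0.763 and 0.838 CPM in PGCC_LCL. These groups did not overlap, as in 14.7% of 14555 genes in the same direction. The difference of 0.493 CPM had an exact two-sided permutation p of 0.00216, the smallest that 924 divisions of 6 against 6 libraries allow. Without the filter, edgeR gave a log2 fold change of 1.61 ± 0.46 SE with an adjusted p of 0.0093. Other settings whose filter kept RPL3L did so through its higher counts in PGCC libraries and are not used here. The 8 striated muscle markers summed to 1.72 to 3.89 CPM in UT_LCL and 3.84 to 5.98 CPM in PGCC_LCL, mostly MB, with MYH7 and MYH6 at 0 counts in these 12 libraries. The part of this sum in the RPL3L result was not tested.

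RPL10L had 1 to 17 counts in UT, 4 to 9 in UT_LCL, 4 to 22 in PGCC and 4 to 13 in PGCC_LCL libraries. Its highest levels were those of replicate 5 in UT (0.991 CPM) and PGCC (1.11 CPM). The difference between PGCC_LCL and UT_LCL was 0.0760 CPM, with overlapping groups (exact two-sided permutation p = 0.450), and a difference of this size was not detectable at this depth.

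**Figure D2:**
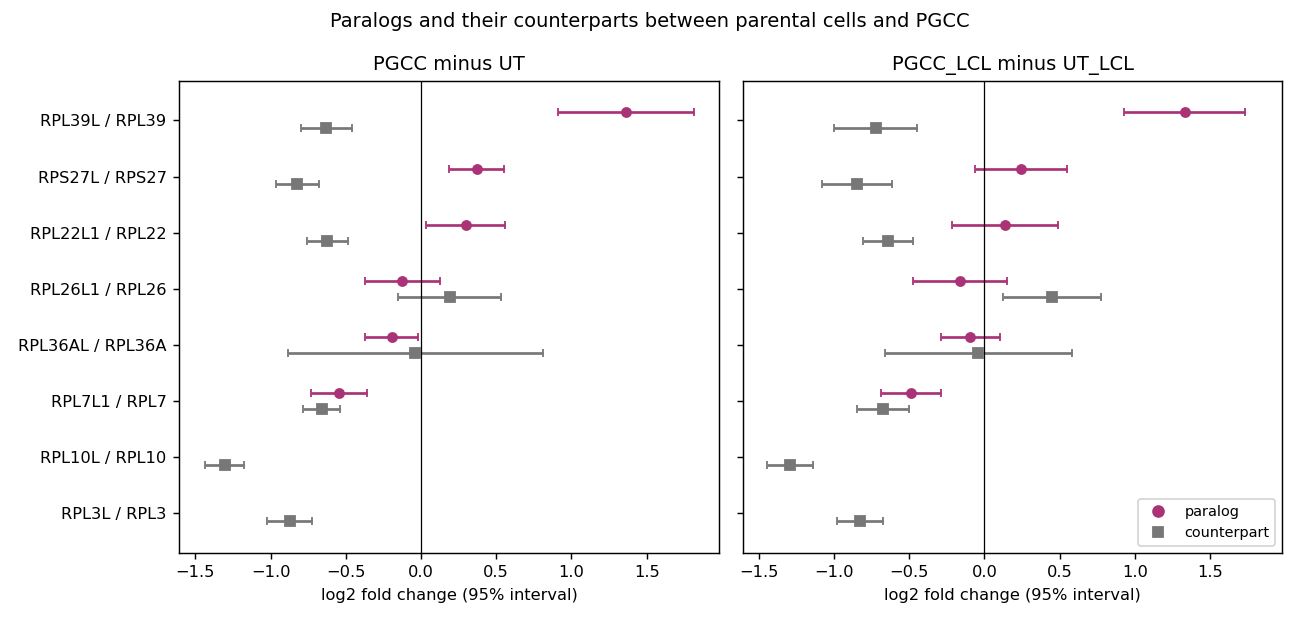
Log2 fold change (horizontal axis, with its 95% interval) of each paralog (circles) and its counterpart (squares) in PGCC minus UT (left) and PGCC_LCL minus UT_LCL (right). RPL39L, RPS27L and RPL22L1 lie to the right of 0 and their counterparts to the left, with the intervals of RPS27L and RPL22L1 crossing 0 on the right, while RPL7L1 and RPL7 both lie to the left. RPL3L and RPL10L were not tested and have no circle.

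The counterparts and the remaining cytosolic ribosomal protein genes set the scale for these values. Of 78 ribosomal protein genes tested in PGCC_LCL against UT_LCL, 72 were lower, 2 were higher and 4 did not pass the threshold, with a median log2 fold change of -0.67 beside -0.01 for all genes. RPL10, a large subunit protein added late in assembly, had the lowest value and fell by 1.29 ± 0.07 on the log2 scale, followed by RPS23 (0.96 ± 0.10 lower) and RPS3A (0.96 ± 0.15 lower) of the small subunit (SE, edgeR adjusted p = 9.6e-09, 2.4e-06 and 1.3e-04). Among the 8 counterparts, RPL3, RPL7, RPL10, RPL22, RPL39 and RPS27 fell, RPL26 rose and RPL36A did not pass the threshold.

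RPL26 and RPL36A were counted in rows that share a strand with a second coding row. RPL26 overlaps a second row of the same name over 5668 bases, and RPL36A overlaps RP1-164F3.9 over 5107 bases. Their counts were low for ribosomal protein genes, 198 to 441 for RPL26 and 29 to 166 for RPL36A, while RPL39 had 6924 to 17194. RPL26 rose by 0.45 ± 0.15 and RPS10, which overlaps RP1-187N21.4 and had 24 to 95 counts, by 0.65 ± 0.19 on the log2 scale (SE, edgeR adjusted p = 0.025 and 0.010). Of 10 ribosomal protein genes whose row overlaps a coding row on the same strand, 2 were higher, 2 did not pass the threshold and 6 were lower. Of the others tested, 66 were lower and 2 did not pass the threshold. How reads in such overlaps were assigned was not given in the sources used here, so levels of RPL26, RPL36A and RPS10 are uncertain. Rows on the opposite strand also overlap RPL7 (RDH10), RPL10 (DNASE1L1), RPL22 (RNF207) and RPL26 (RP11-849F2.5), and RP1-120G22.11 overlaps RPL22 on its own strand with 0 to 9 counts.

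The paralog's share of its pair was then computed inside each library, as counts per listed kilobase of the paralog in percent of the sum of paralog and counterpart. A ratio of 2 genes of the same library does not depend on the scaling between libraries, and the difference in its logarithm between groups does not depend on the gene lengths. The tests are exact two-sided permutation tests over 924 divisions for 8 pairs, and the p values are not adjusted. These tests do not use the pairing of libraries by experiment. How many other genes would separate the groups in a ratio to the same counterparts was not computed. A separation of a ratio, or its p value, can therefore not be read as particular to the paralogs.

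RPL39L made up 2.55% ± 0.915 of its pair in UT_LCL and 9.74% ± 1.54 in PGCC_LCL (SD, n = 6), with ranges of 1.69% to 4.09% and 7.32% to 11.8%. The ratio of RPL39L to RPL39 was 4.29-fold higher in PGCC_LCL (exact permutation p = 0.00216, higher in 6 of 6 experiments). RPS27L made up 0.543% ± 0.0391 in UT_LCL and 1.15% ± 0.0977 in PGCC_LCL, and again the ranges did not overlap (0.492% to 0.605% and 1.06% to 1.32%). Its ratio to RPS27 was 2.13-fold higher (exact permutation p = 0.00216, higher in 6 of 6 experiments). For RPL22L1 the share was 3.18% ± 0.607 in UT_LCL and 5.31% ± 0.843 in PGCC_LCL, with an overlap of 1 library on each side (highest UT_LCL 4.07%, lowest PGCC_LCL 4.01%). The ratio of RPL22L1 to RPL22 was 1.71-fold higher (exact permutation p = 0.00433, higher in 6 of 6 experiments). These 3 ratios stayed past an unadjusted p of 0.05 in all 9 alternative settings tried for each. Paired by experiment, each had an exact sign-change p of 0.0312, the smallest that 6 experiments allow. The counterparts RPL39, RPS27 and RPL22 were themselves lower in PGCC_LCL with no overlap of the groups, as were 13.1% of 14555 genes. The levels of RPS27L and RPL22L1 did not pass the threshold in these libraries. The parts of paralog and counterpart in these ratios were not tested.

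**Figure D3:**
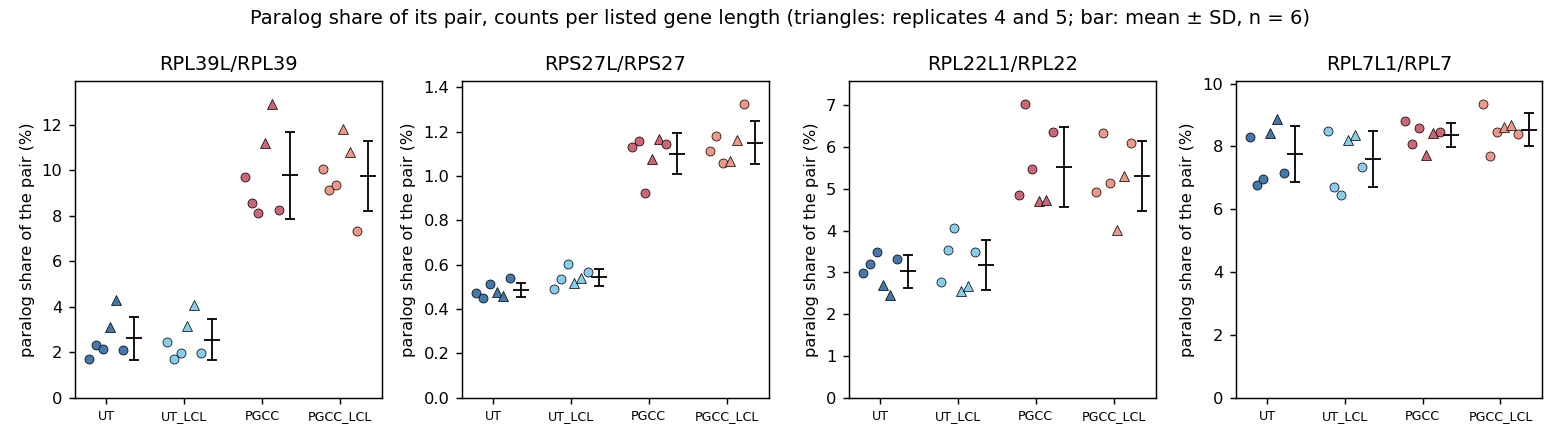
Share of the paralog in its pair, in percent of counts per listed kilobase (vertical axis, starting at 0), in every library of the 4 conditions, with replicates 4 and 5 as triangles and mean and SD of 6 libraries as bars. The shares of RPL39L and RPS27L separate PGCC and PGCC_LCL from all parental libraries, that of RPL22L1 does so with 1 overlap between UT_LCL and PGCC_LCL, and that of RPL7L1 overlaps throughout.

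The other 5 pairs were less clear. The share of RPL7L1 was 7.60% ± 0.883 in UT_LCL and 8.53% ± 0.527 in PGCC_LCL (exact permutation p = 0.0541), and paired by experiment the exact sign-change p was 0.0312 with PGCC_LCL higher in 6 of 6. RPL3L made up 0.00972% ± 0.00713 in UT_LCL and 0.0494% ± 0.00798 in PGCC_LCL (exact permutation p = 0.00216, paired exact sign-change p = 0.0312). RPL10L made up 0.0408% ± 0.0134 and 0.118% ± 0.0499 (exact permutation p = 0.00649), and both shares rest on the few counts given above. The RPL10L ratio had an exact permutation p of 0.0857 without replicates 4 and 5, within a range of 0.00649 to 0.0857 over 9 alternatives. RPL10 fell by 1.29 on the log2 scale in these libraries, and the level of RPL10L did not differ detectably (exact two-sided permutation p = 0.450). The RPL10L ratio was 1.48 higher on the log2 scale. With so few counts a change of RPL10L itself cannot be told from none, and the parts of both genes in this ratio were not tested. RPL26L1 made up 82.0% ± 4.34 and 75.0% ± 3.73 (exact permutation p = 0.0195), but 0.0625 when paired by experiment, and RPL36AL 98.6% ± 0.633 and 98.6% ± 0.531 (exact permutation p = 0.820). These last shares rest on the uncertain counts of RPL26 and RPL36A.

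LCL-521 alone gave smaller differences. The fit called 0 of 13277 genes in UT_LCL against UT (0%), where 71 genes had an unadjusted edgeR p under 0.05 and DESeq2 called 0. In PGCC_LCL against PGCC it called 1 of 14151 genes (0.00707%), which was no paralog, and DESeq2 called 7. With the experiment as a block, edgeR called 115 genes (0.866%) in parental and 234 genes (1.65%) in giant cells. No paralog passed the threshold in either comparison, by edgeR, by DESeq2 or with the experiment as a block. Log2 fold changes of the 6 paralogs tested ranged from -0.15 (RPL36AL) to 0.11 (RPS27L) in parental cells, and those of the 7 tested in giant cells from -0.13 (RPL22L1) to 0.18 (RPL3L). RPL7L1 and RPL36AL were lower with LCL-521 in 6 of 6 parental experiments. The log2 fold change of RPL7L1 was -0.05 ± 0.11 SE (edgeR adjusted p = 1.00). RPL36AL went from 166 ± 19.4 CPM in UT to 149 ± 21.8 CPM in UT_LCL (SD, n = 6), a log2 fold change of -0.15 ± 0.10 SE with an edgeR adjusted p of 1.00. The ratio of RPS27L to RPS27 was 1.12-fold higher in UT_LCL than in UT (0.543% against 0.485%, exact permutation p = 0.0195, higher in 6 of 6 experiments), the lowest p among the 16 ratio tests of LCL-521 before any adjustment. The difference between the effects of LCL-521 in giant and in parental cells passed the threshold for 0 of 14555 genes (0%), with 60 at an unadjusted edgeR p under 0.05 and 0 called by DESeq2. For the paralogs this difference ranged from -0.52 ± 0.70 SE (RPL10L) to 0.18 ± 0.55 SE (RPL3L) on the log2 scale, so the 2 genes with few counts had the widest errors.

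The paralogs also varied among libraries of the same condition. After subtraction of each condition's mean, the SD of log2 CPM was 0.15 for RPL36AL, 0.16 for RPL7L1, 0.20 for RPS27L, 0.24 for RPL26L1, 0.25 for RPL22L1 and 0.36 for RPL39L, beside a median of 0.28 over all genes. RPS27L and RPL22L1 varied together (r = 0.856 over 24 libraries), and RPL22L1 and RPL26L1 did so as well (r = 0.805). These genes also moved with the median of the cytosolic ribosomal protein genes of the same library, with r = 0.859 for RPS27L (Spearman's rho 0.803), 0.788 for RPL22L1 (rho 0.676) and 0.695 for RPL26L1 (rho 0.763). RPL36AL did so less closely (r = 0.582, rho 0.594, and r = 0.456 without UT_LCL 3 and UT_LCL 6). For RPL39L (r = 0.110) and RPL7L1 (r = 0.0848) the values were near 0. Leaving out UT_LCL 3 and UT_LCL 6, the libraries farthest from the median, gave r = 0.768 for RPS27L, 0.806 for RPL22L1 and 0.764 for RPL26L1. Among libraries of the same condition, RPS27L and RPL22L1 thus varied with ribosomal protein genes. This was not particular to ribosomal protein genes, as TMEM14B had r = 0.922 with RPL22L1 and 0.822 with RPS27L. How many genes vary in this way was not counted. Between parental and giant cells the log2 fold changes of RPS27L and RPL22L1 lay above 0 and those of most ribosomal protein genes below. Points of these correlations share library, depth and scaling, and they are given as a description.

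**Figure D4:**
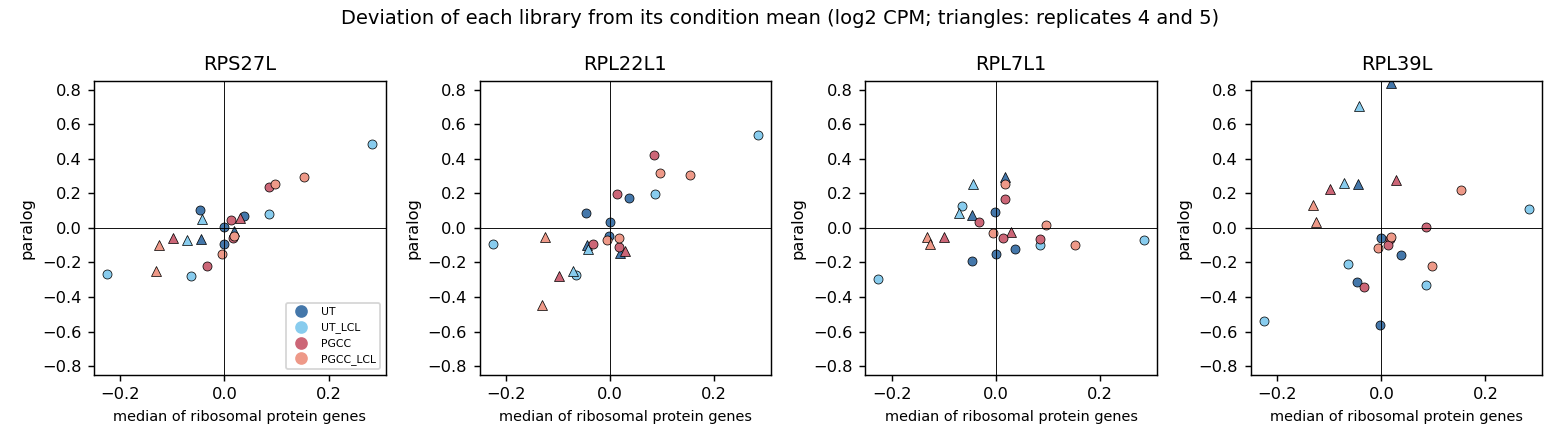
Deviation of each library from the mean of its condition in log2 CPM, for the median of the cytosolic ribosomal protein genes (horizontal axis) and for a paralog (vertical axis), with conditions by colour and replicates 4 and 5 as triangles. RPS27L and RPL22L1 rise from left to right (r = 0.859 and 0.788), whereas RPL7L1 and RPL39L do not (r = 0.0848 and 0.110), and the highest points of RPL39L are triangles.

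Replicates 4 and 5 together stood 0.34 above the condition mean for RPL39L and 0.58 above it for RPL10L, and below it for RPL26L1 (-0.24) and RPL22L1 (-0.19), as means over the 4 conditions in log2 CPM. The genes most like the other paralogs over 24 libraries were SKP1 (r = 0.900) and TMEM14B (r = 0.892) for RPL22L1, TMEM14B (r = 0.885) and SERF2 (r = 0.875) for RPS27L, and MYL12B (r = 0.931) and CHCHD2 (r = 0.912) for RPL26L1. For RPL36AL they were SSB (r = 0.903) and BANF1 (r = 0.888), for RPL3L FBLIM1 (r = 0.896) and GUSB (r = 0.893), and for RPL10L ANKRD24 (r = 0.776) and USP35 (r = 0.750). After subtraction of each condition's mean, r was 0.649 for FBLIM1 and 0.732 for GUSB with RPL3L (0.421 and 0.620 without the 2 libraries farthest from its median), and 0.764 for ANKRD24 and 0.732 for USP35 with RPL10L. For the genes named with the other paralogs in this paragraph it was 0.822 to 0.926. TMEM14B, which encodes a small membrane protein, was shared by RPL22L1 and RPS27L.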

How the data were processed

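Raw counts were deposited for 24 libraries. Per the submitters' notes and the study's methods, the authors mapped paired-end reads to hg19 with STAR and counted reads per gene with HTSeq. How multi-mapped or overlapping reads and strand were handled is not given in the sources used here. Coordinates of genes are hg19, and those of start sites are GRCh38.p14. Counts were tested with edgeR 4.0.16 (quasi-likelihood, R 4.3.3) after filterByExpr (minimum count 10, total 15) and TMM scaling, in 12 libraries per comparison, and the difference of LCL-521 effects in 24. Benjamini-Hochberg adjustment covered all genes tested (threshold 0.05). Fits were tested on simulated data. Alternatives were DESeq2 1.42.0, other scalings and filters, omitted replicates and an experiment block. CPM used a prior count of 2 on the log2 scale, and ratios an offset of 0.5 counts.

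The experiments were repeated 6 times with all conditions in parallel, per the labels, and deviations of same-numbered libraries correlated at 0.171 or more in every comparison (median 0.272 to 0.652), so the numbers pair the libraries. Pairs of libraries within a group differed beyond counting noise (chi-square per degree of freedom 4.69 to 110 over 60 pairs). Limits of detection cover counting error only.

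Members and lists were chosen with earlier results of these data known, and which values led to the choice is not recorded. Genes named were the paralogs, their counterparts, ribosomal protein genes that rose and the 3 that fell most, CDKN1A, MDM2 and the 2 largest rises and falls past the threshold in a p53 list, the 2 genes most correlated with each paralog, and genes with overlapping rows. Genes named as markers fall outside this rule. Some items of the lists are not reported here.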

Additional observations from a re-analysis of the deposited data

Results flagged for a closer look

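RPL7L1 in PGCC_LCL had 1 library far from the others. PGCC_LCL 1 stood at 469 CPM and the next highest library at 397 CPM, a gap of 0.702 of the whole range of the group. Among 32 sets of 6 libraries examined (8 paralogs in 4 conditions) it was the only 1, and chance alone marks about 1 set in 20. The sets of different paralogs share libraries and are not independent of each other. Replicate 1 was also the highest library of PGCC, at 448 CPM. Without replicate 1 RPL7L1 fell by 0.53 on the log2 scale in PGCC_LCL against UT_LCL (edgeR adjusted p = 0.0011, within 7.1e-06 to 0.0082 over 16 alternatives).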

How the results depend on the processing

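The results of PGCC against UT were known when the paralogs were chosen and support nothing here. In this comparison 3 of 6 paralogs tested passed the threshold in the fit described, beside 47.4% of all genes. In the other settings 3 or 4 passed, beside 25.8% to 56.2% of all genes, except for 5 without replicates 4 and 5. There 54.6% of all genes passed, and 64.3% with the block, where replicate numbers are paired. The additions were RPL22L1 and RPL36AL, and RPL36AL was also added without replicate 4 alone. RPL3L was added without a filter and in the fit of 24 libraries. That fit kept RPL3L through its higher counts in PGCC libraries, so its call there is no support. The block called 115 genes in UT_LCL against UT (3 without replicates 4 and 5) and 234 in PGCC_LCL against PGCC (129 without them), against 0 and 1. PGCC_LCL against PGCC had 7 calls by DESeq2, 0 with 24 libraries in 1 fit, 0 without replicates 4 and 5, and 0 to 1 with a replicate left out. The block changed no call on a paralog's level in the other comparisons.

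Signs turned for values near 0. With a replicate left out, the log2 fold change of RPL22L1 in UT_LCL against UT ranged from -0.039 to 0.094 (negative without replicate 3). That of RPS27L in PGCC_LCL against PGCC ranged from -0.074 to 0.020 (positive without replicate 4), and was 0.038 without replicates 4 and 5 and 0.037 with the block added. In the difference of LCL-521 effects, RPL3L ranged from -0.090 to 0.46 (negative without replicate 3) and RPL26L1 from -0.093 to 0.0092 (positive without replicate 5).

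Log2 ratios of paralog to counterpart in PGCC_LCL against UT_LCL changed as follows. RPL7L1 passed in 2 of 9 settings, with the replicate block (0.19, p = 0.0312 by exact paired sign changes) and without replicate 2 (0.18, exact permutation p = 0.0317), ranged from 0.14 to 0.21 with a replicate left out and was 0.25 without replicates 4 and 5. RPL10L was 1.20 without replicates 4 and 5 and no longer passed. RPL26L1 was -0.63 with the block and -0.53 without replicates 4 and 5, and -0.78 to -0.50 with a replicate left out, and passed in 4 of 9 settings. RPL36AL was 0.016 without replicates 4 and 5 and -0.34 to 0.021 with a replicate left out. The cause of these changes was not tested.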
